A study of Bos taurus with 96 samples.

Results

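The genes described here are the 100 that, on average over 16 Holstein cows, were highest in liver and lowest in skeletal muscle shortly after calving. RNA from biopsies of both tissues was sequenced at late pregnancy (LP), early lactation (EL) and mid lactation (ML), 1 library for each of the 16 cows, so the 96 libraries split into 48 of liver and 48 of muscle. Of the cows, 8 had good genetic merit for fertility (Fert+) and 8 had poor genetic merit for fertility (Fert-), and there was no untreated group. By the study's methods both genotypes mixed cows in their first and later lactations and were managed as a single herd, so EL is the time shortly after calving for both, and the labels give no age. Each cow gave all 6 of its libraries. Genotype tests within a time-point compare separate cows. The main edgeR tests that span time-points had no block for each cow and treat the libraries of a cow as independent. Levels are CPM, the count of a gene divided by the total of its library and multiplied by 1000000. A gene was kept when its mean CPM was at least 1 over the 48 liver libraries and over the 48 muscle libraries, and 10423 of 24616 genes were. For each kept gene, 4 means over the 16 cows were taken on the log2(CPM + 1) scale, namely EL minus LP and EL minus ML in liver, and LP minus EL and ML minus EL in muscle. The 100 genes were chosen by the size of the smallest of these 4 measured values, so their rise in liver and their fall in muscle at EL are how they were chosen and carry no test. All 4 values were above 0 for 303 of the 10423 kept genes (2.91%), and the reverse pattern, lower in liver and higher in muscle at EL, was held by 2345 (22.5%).

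Around calving the liver of a dairy cow makes most of the glucose that the udder turns into lactose, largely from propionate, lactate, glycerol and amino acids, since little glucose is absorbed from the rumen. Pyruvate carboxylase, the enzyme that turns pyruvate into oxaloacetate, stands at the entry of lactate and alanine into that synthesis. Skeletal muscle burns glucose and fatty acids through glycolysis, the citrate cycle and the mitochondrial respiratory chain, and it releases amino acids and lactate into the blood when intake falls short of milk output. A symbol was available for 39 of the 100 genes, and of these 39 genes 23 encode enzymes of glycolysis, gluconeogenesis or glycogen metabolism, enzymes of pyruvate oxidation and the citrate cycle, or subunits of the respiratory chain and ATP synthase. Of these 23 genes, 14 are on the 5 lists of glycolysis, gluconeogenesis, glycogen metabolism, the citrate cycle and the respiratory chain, and the others are only on lists written after the values were seen. Leaving out genes of the mitochondrial DNA, genes of the same lists, both kinds together, made up 8.23% of the 1324 kept genes with a symbol. The other 61 genes are known here by their Ensembl identifier only, and the symbols come from a set that favours abundant genes, so the share of energy genes among the 61 is not known.

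Some facts of the libraries touch these genes. Library totals ran from 14966847 to 26358063 counts in liver and from 15279337 to 22018740 in muscle. In muscle the summed CPM of 20 muscle fibre markers, only 2 of them kept genes, had a median of 259892 at LP, 146569 at EL and 290954 at ML. The kept genes as a whole did not stay level in muscle either. The median kept gene was -0.36 for LP minus EL and -0.39 for ML minus EL on the log2(CPM + 1) scale. A gene whose muscle CPM fell at EL therefore fell against a background that rose by that much. With the TMM factors of edgeR, which bring the background close to 0 (-0.04 and -0.03), all 100 genes kept all 4 values above 0, but 1285 kept genes then had that pattern and 45 of the 100 genes were chosen again. In bulk tissue, fewer cells of a type and less RNA per cell cannot be told apart.

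Each tissue carried the markers of its label. In liver the 20 muscle fibre markers summed to between 10.7 and 59.9 CPM, with 14 of the 20 under 1 CPM in every liver library. The liver library with the highest muscle marker sum at EL (31.3 CPM) would, at the muscle ratio, hold 2.84 CPM of ALDOA from muscle, beside a median of 97.8 CPM in liver at EL. In muscle the 15 hepatocyte markers summed to at most 229 CPM, in a library at ML. At the liver ratio this would bring 0.559 CPM of PC, beside a median of 20.9 CPM in muscle at ML. The median sum in muscle was 3.16 CPM at LP, 4.06 at EL and 12.5 at ML. By edgeR 6 of the 7 kept hepatocyte markers were lower in muscle at EL than at ML (28.4% of all tested genes were). Single libraries do stand apart. Each library was correlated with the other cows' mean profiles, over genes of mean log2(CPM + 1) above 3, after subtracting its cow's own mean. By this, 10 of 48 liver libraries and 1 of 48 muscle libraries were closer to another time-point than to their label. The subtraction links the libraries of a cow, so these counts are not of independent libraries. In 3 cows, 2 liver libraries were each closest to the other's time-point. The correlations were 0.63 and 0.67 for Fert- cow 426 (LP and EL). They were 0.52 and 0.15 for Fert+ cow 3434 (LP and EL), and 0.06 and 0.27 for Fert- cow 996 (EL and ML), so some were close to 0. The library of cow 426 labelled LP held the highest liver value at LP for 36 of the 100 genes, against 4.90% of kept genes. The liver library of Fert+ cow 3847 at EL, one of 13 libraries that count 11 to 17 of a set of 19 genes of which the other 83 count at most 3, was the highest at EL for 24 of the 100 genes, beside 25.4% of kept genes. In muscle at EL, the library of Fert- cow 419 was the lowest for 57 of the 100 genes (8.66% of kept genes) and that of Fert- cow 164 the highest for 38 (9.47%).

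Over the 100 genes the median rise in liver was 0.24 for EL minus LP and 0.26 for EL minus ML, where the median kept gene stood at 0.04 and -0.02. The median fall in muscle was 0.30 for LP minus EL and 0.31 for ML minus EL. The muscle side was shared by more cows: 73 of the genes were lower at EL than at LP in at least 12 of the 16 cows and 78 were lower at EL than at ML, whereas in liver these counts were 47 and 46. A given gene showed all 4 differences in the same cow in 1 to 13 of the 16 cows (median 7). The threshold is not a gap in the data. The minimum of the 4 values was 0.0896 for ATP5B (rank 95) and 0.0864 for NDUFB6 (rank 100), and just outside it was 0.0858 for NDUFB7 and 0.0837 for FAT1. The largest minimum was 0.51. By edgeR's quasi-likelihood test over all genes, with TMM scaling, 10 of the 100 genes passed an adjusted p of 0.05 as higher at EL than at LP in liver (1.86% of all tested genes), 62 as higher than at ML in liver (20.3%), 99 as lower than at LP in muscle (24.7%) and 99 as lower than at ML in muscle (28.4%). These contrasts chose the genes, and the counts are given only as a description. With each cow as a replicate block, the count of 10 became 5.

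**Figure D1:**
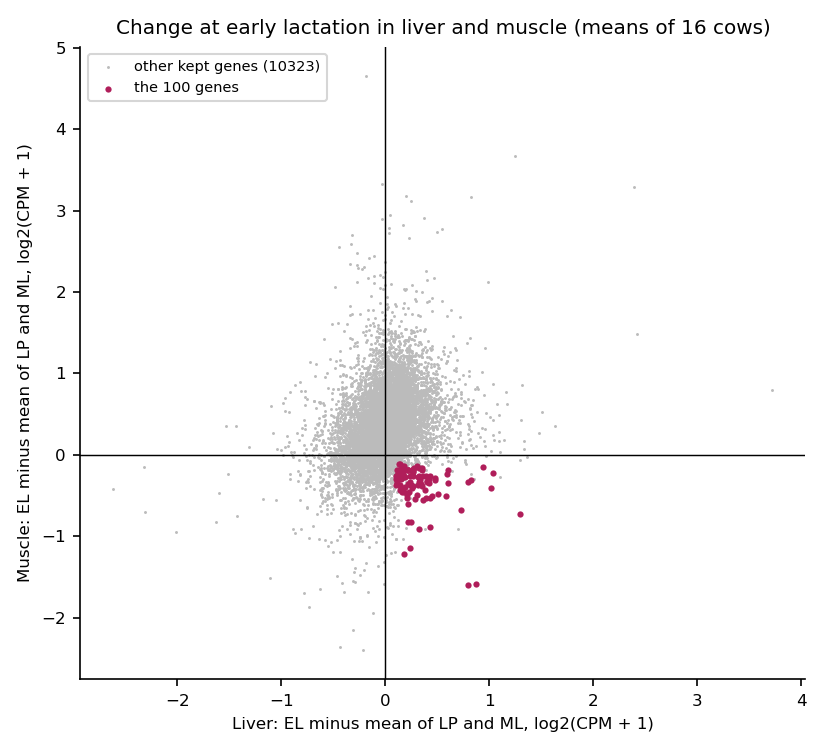
Each point is 1 of the 10423 kept genes: the horizontal axis is its change at EL in liver and the vertical axis its change at EL in muscle, both as EL minus the mean of LP and ML on the log2(CPM + 1) scale, averaged over 16 cows. The 100 genes (red points) lie at the lower right by the rule, while most kept genes lie above 0 in muscle, where the median gene rose.

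Glycolysis, the breakdown of glucose to pyruvate, was represented by ALDOA, PGK1 and LDHA among the 100 genes. ALDOA (ENSBTAG00000012927) encodes aldolase A, the muscle form of the enzyme that splits fructose bisphosphate. In liver its lowest, median and highest CPM were 55.2, 72.4 and 90.3 at LP, 63.0, 97.8 and 295 at EL, and 56.4, 75.8 and 93.1 at ML. The median at EL lay above the highest liver value at LP and at ML, although the ranges overlapped. In muscle, where it is among the most abundant transcripts, ALDOA ran from 16955 over 22752 to 32058 CPM at LP, from 7283 over 17285 to 27011 at EL and from 20696 over 26337 to 30970 at ML. All 16 cows had less ALDOA in muscle at EL than at LP and than at ML, while 13 and 12 cows had more of it in liver. The mean log2 difference was 0.46 ± 0.58 (SD, n = 16) for EL minus LP in liver and 0.46 ± 0.40 for LP minus EL in muscle. The 2 highest liver values at EL came from Fert+ cows 3847 and 756 (295 and 189 CPM), and without cow 3847 the liver differences were 0.38 and 0.29.

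LDHA (ENSBTAG00000008683), a subunit of lactate dehydrogenase, which interconverts pyruvate and lactate, had on the log2(CPM + 1) scale a mean muscle fall of 1.56 from LP and 1.65 from ML. Its muscle median was 1402 CPM at LP, 475 at EL and 1503 at ML, and the range at EL, from 108 to 1030 CPM, overlapped the range at LP, from 966 to 2275, only at its upper end. In liver its median went from 34.2 CPM at LP to 43.5 at EL and 16.7 at ML. The liver difference to ML was above 0 in all 16 cows (1.26 ± 0.65), but that to LP in only 9 of 16 (0.32 ± 1.01), so most of the liver pattern of LDHA was the low level at ML. A gene with no symbol, ENSBTAG00000016688, had nearly the same 4 values (0.36, 1.38, 1.54 and 1.64), and whether it shares reads with LDHA was not tested.

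PGK1, phosphoglycerate kinase, fell in muscle from a median of 958 CPM at LP to 481 at EL and stood at 1181 at ML. Its liver medians were 103, 106 and 108 CPM, and 8 of 16 cows had more at EL than at LP, with 193 CPM in the highest cow at EL. Of the 8 kept glycolytic genes, 5 were not among the 100. GPI, TPI1 and LDHB also had all 4 values above 0. PFKM and ENO3 were lower at EL in both tissues on average. By edgeR all 8 fell in muscle at an adjusted p under 0.05 against LP (24.7% of all tested genes did) and against ML (28.4%). In liver ALDOA and LDHB rose against LP (1.86% of all tested genes did). Against ML, ALDOA, PGK1, LDHA and LDHB rose in liver (20.3%) and PFKM fell. The call for PGK1 is on the TMM scale, while its liver median CPM was 106 at EL and 108 at ML.

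**Figure D2:**
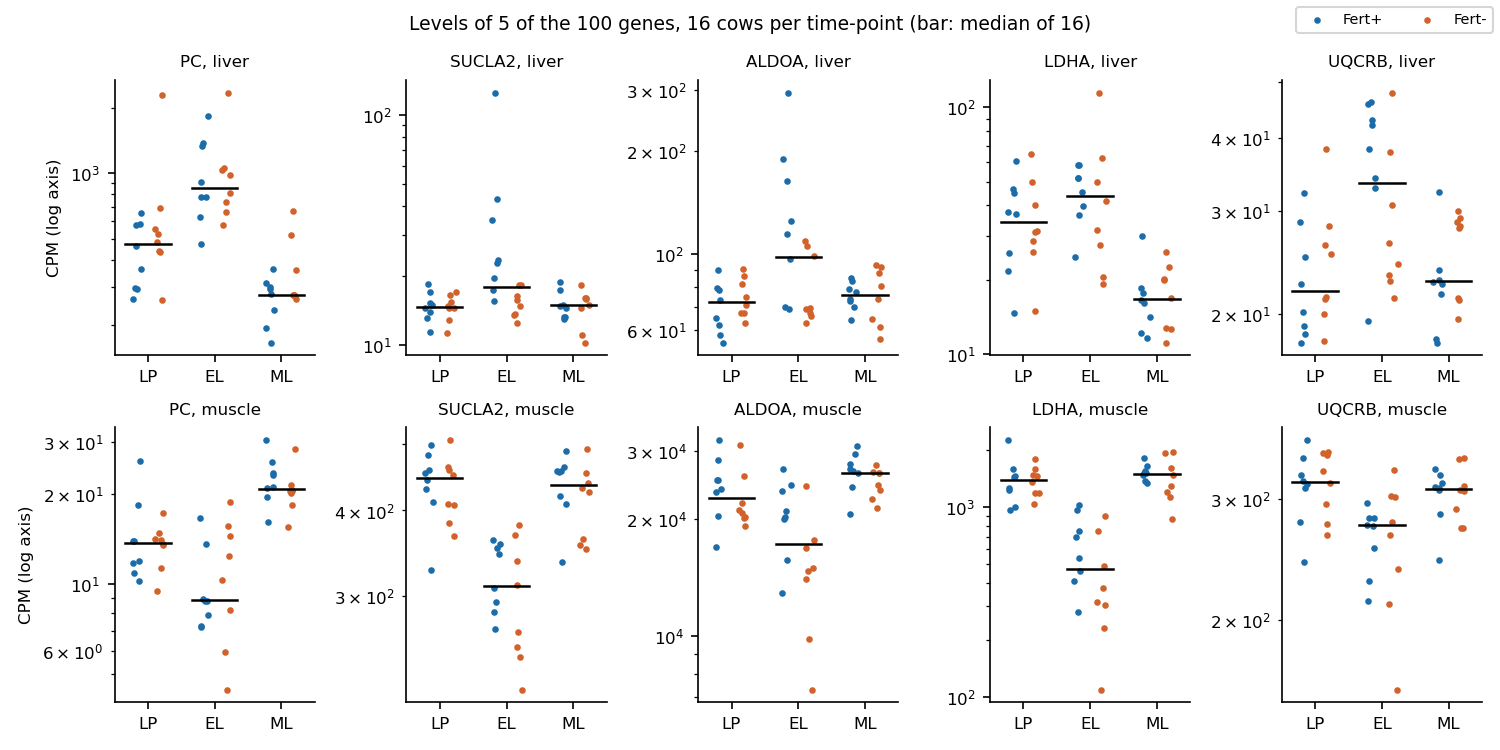
CPM of PC, SUCLA2, ALDOA, LDHA and UQCRB on a log axis at LP, EL and ML, in liver (upper row) and muscle (lower row); each point is 1 cow, blue for Fert+ and orange for Fert-, and the bar is the median of 16. The median at EL is the highest of the 3 in liver and the lowest of the 3 in muscle for each gene, and single liver libraries at EL reach 125 CPM of SUCLA2 and 295 CPM of ALDOA.

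PC (ENSBTAG00000019700), pyruvate carboxylase, was higher in liver at EL than at ML by 1.77 ± 0.25 (SE) on the edgeR log2 scale. Its liver CPM ran from 259 over 474 to 2312 at LP, from 474 over 860 to 2362 at EL and from 166 over 275 to 668 at ML. Mean liver CPM at EL was 78.1% above LP and 225% above ML, and PC was higher at EL than at ML in 16 of 16 cows. The value of 2312 CPM belongs to the library of cow 426 labelled LP, and the next highest liver value at LP was 695. In muscle PC was scarce, at medians of 13.8, 8.85 and 20.9 CPM at LP, EL and ML, and it was lower at EL than at ML in 15 cows. On the log2 scale the muscle differences were 0.43 ± 0.73 (SD, n = 16) for LP minus EL and 1.04 ± 0.65 for ML minus EL. Among the 5 kept genes of the gluconeogenesis list, LDHB shared the direction in both tissues. SDS, serine dehydratase, was higher in liver at EL than at LP by 0.99 but did not fall in muscle.

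The link between glycolysis and the citrate cycle was represented by PDHA1 and DLD, subunits of the pyruvate dehydrogenase complex. PDHA1 had liver medians of 102, 129 and 106 CPM and muscle medians of 544, 493 and 589 CPM at LP, EL and ML. DLD, a subunit that also serves the oxoglutarate dehydrogenase complex, changed little in liver (medians 73.5, 79.8 and 73.1 CPM) but was lower at EL in muscle in 15 of 16 cows against either time-point (428, 348 and 413 CPM). Its muscle differences, 0.28 ± 0.14 and 0.26 ± 0.17 (SD, n = 16), were small beside those of LDHA and even between cows. PDHB, the other kept gene of this complex, was no member and fell in muscle by edgeR as well.

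In the citrate cycle, which oxidises acetyl groups to carbon dioxide, 4 of 16 kept genes were members. SUCLA2 (ENSBTAG00000006759), the ATP-forming subunit of succinyl-CoA ligase, ranked second of all genes. Its muscle CPM ran from 328 over 447 to 507 at LP, from 219 over 310 to 381 at EL and from 336 over 435 to 491 at ML. The muscle medians at LP and ML both lay above the highest value at EL. In liver its medians were much closer, 14.6, 17.8 and 14.8 CPM, and the highest value at EL, 125 CPM in Fert+ cow 3847, was far above the next, 42.9 CPM in Fert+ cow 756. Without cow 3847 the liver differences of SUCLA2 were 0.36 and 0.33 in place of 0.51 and 0.51.

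IDH3A, a subunit of the NAD-dependent isocitrate dehydrogenase, had muscle medians of 203, 160 and 236 CPM and liver medians of 8.47, 10.9 and 7.91 CPM at LP, EL and ML. OGDH, a subunit of the oxoglutarate dehydrogenase complex, was higher in liver at EL by 0.28 ± 0.71 against LP and 0.35 ± 0.58 against ML (SD, n = 16), and its muscle medians were 464, 376 and 543 CPM. MDH2, mitochondrial malate dehydrogenase, went in liver from 163 to 207 and 173 CPM and in muscle from 741 to 641 and 757 CPM. Each of the 4 genes thus had its highest liver level and its lowest muscle level at EL. Over the whole list, 15 of 16 genes fell in muscle at EL against LP by edgeR (24.7% of all tested genes did) and 15 against ML (28.4%). IDH2 was the exception, as it rose. In liver 1 gene of the 16 (SUCLA2) rose against LP (1.86%) and 5 rose against ML (20.3%), IDH3A, OGDH and SUCLA2 among them.

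The respiratory chain passes electrons from NADH to oxygen through complexes I, III and IV, and ATP synthase uses the resulting proton gradient. Members came from each of these: NDUFV2, NDUFB9 and NDUFB6 of complex I, UQCRB, CYC1, UQCR11 and UQCRFS1 of complex III, COX5A of complex IV, and ATP5G3, ATP5G1, ATP5A1 and ATP5B of ATP synthase. Complex III had the largest share, with 4 of its 9 kept subunits. UQCRB ran in liver from 17.9 over 21.9 to 38.3 CPM at LP, from 19.4 over 33.6 to 47.9 at EL and from 17.9 over 22.8 to 32.3 at ML. In muscle UQCRB ran from 243 over 317 to 365 CPM at LP, from 159 over 274 to 330 at EL and from 245 over 310 to 343 at ML. The median of UQCRB at EL was above the highest ML value in liver, and 13 and 14 of 16 cows had more at EL.

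CYC1, cytochrome c1, went from a liver median of 54.5 CPM at LP to 80.1 at EL and 64.7 at ML, and from a muscle median of 278 to 224 and 280 CPM. UQCR11 and UQCRFS1 had smaller liver differences, 0.24 and 0.21 for EL minus LP, and muscle differences of 0.40 and 0.30 for LP minus EL. COX5A was higher in liver at EL than at LP in 13 cows (0.33 ± 0.44) but than at ML in 8 (0.15 ± 0.43). It was lower in muscle at EL than at LP in 15 cows.

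The 4 ATP synthase genes cover its rotor ring (ATP5G1 and ATP5G3) and its catalytic head (ATP5A1 and ATP5B). ATP5G3 had liver medians of 80.2, 93.0 and 77.3 CPM and muscle medians of 240, 182 and 253 CPM at LP, EL and ML. ATP5B, the most abundant, had liver medians of 471, 577 and 491 CPM and muscle medians of 1711, 1467 and 1849 CPM. The head subunits had the smaller liver values, with 0.10 for ATP5A1 and 0.09 for ATP5B against ML. For the 3 subunits of complex I the smallest of the 4 values ran from 0.0864 to 0.16. All 21 kept genes of a shorter list of nuclear respiratory chain genes fell in muscle at EL by edgeR against either time-point. Of all tested genes, 24.7% fell against LP and 28.4% against ML. On the plain CPM scale 19 of the 21 also fell. In liver none rose against LP (1.86% of all tested genes did) and 1 (CYC1) rose against ML, a smaller share than the 20.3% of all tested genes. In the fuller list of complex III, with 9 genes, UQCRB rose against LP, and CYC1, UQCR11 and UQCRB rose against ML. In the other fuller lists, 4 of 32 genes of complex I, 0 of 13 of complex IV and 1 of 15 of ATP synthase rose in liver against ML. The 13 genes encoded in the mitochondrial DNA had another pattern: none had all 4 values above 0. By edgeR 11 of the 13 fell in muscle at EL against LP (24.7% of all tested genes did) and 4 against ML (28.4%). In liver none rose against LP (1.86%) or ML (20.3%), and ND1 fell against ML. On the log2(CPM + 1) scale ND1 was at -0.30 and -0.42 in liver.

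**Figure D3:**
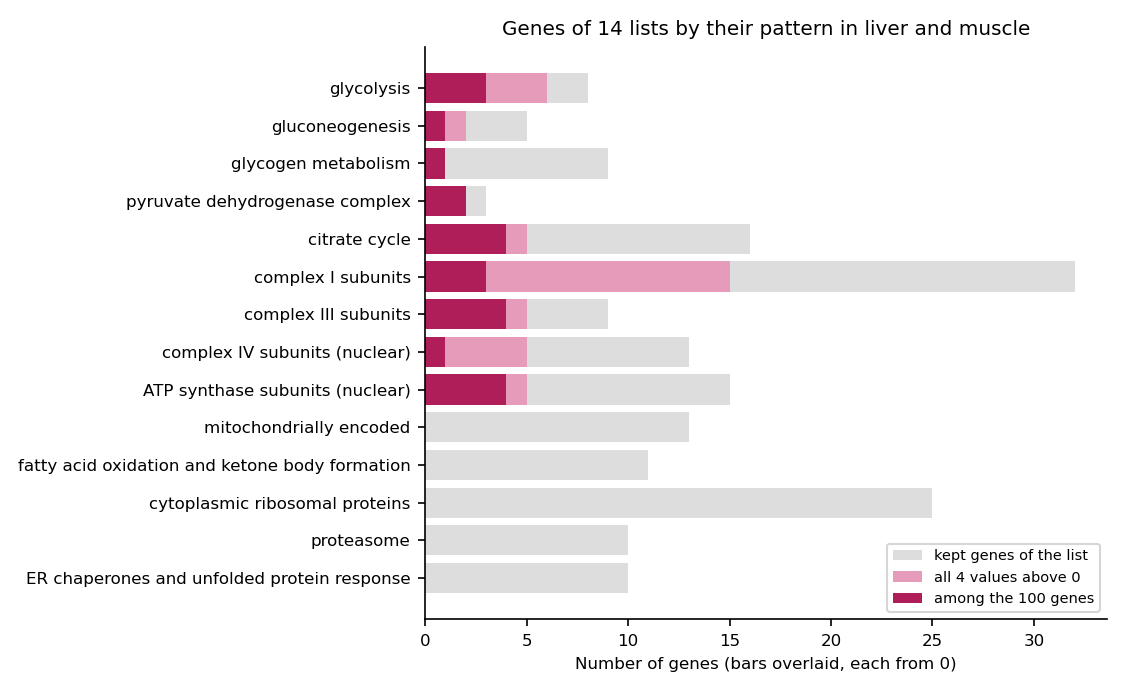
Bars count genes of 14 lists: grey for the kept genes of each list, pink for those with all 4 values above 0 and red for those among the 100. Of complex I subunits 15 of 32 have all 4 values above 0, and of cytoplasmic ribosomal proteins, proteasome subunits and endoplasmic reticulum chaperones none has.

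Together, 45 of 109 kept genes of the energy lists (41.3%) had all 4 values above 0, beside 97 of the 1324 kept genes with a symbol (7.33%). The 13 kept genes encoded in the mitochondrial DNA are not among the 109, and none of them had all 4 values above 0. The lists of single complexes and of the mitochondrial genes were written after the data had been seen, and no test is attached to these shares. Other lists that move at EL were absent from the 100 genes. The endoplasmic reticulum chaperones were higher in liver at EL for all 10 kept genes but fell in muscle for none, and by edgeR 8 of them rose in muscle against LP (29.1% of all tested genes did) and 7 against ML (30.9%). The proteasome had 7 of 10 genes higher in liver at EL on both differences and likewise none lower in muscle. Among all kept genes, 41.9% had both liver values above 0 and 13.2% had both muscle values above 0. Fatty acid oxidation and ketone body formation, also outside the 109 energy genes, had 11 kept genes and none with all 4 values above 0.

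Other named members have varied roles. PGP, a phosphatase that removes phosphoglycolate and glycerol phosphate, was scarce in liver (medians 4.63, 5.10 and 4.21 CPM) and ran up to 20.2 CPM in cow 3847 at EL. GLRX, a glutaredoxin that reduces mixed disulfides, went in muscle from a median of 16.8 CPM at LP to 8.81 at EL and 17.2 at ML.

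SOD2, the mitochondrial superoxide dismutase, and TUBA1B, an alpha tubulin, had a rise in liver against ML that rested on 1 library. SOD2 had liver medians of 27.0, 31.3 and 28.9 CPM, but cow 3847 had 257 CPM at EL where the next cow had 43.7. TUBA1B had liver medians of 81.3, 87.0 and 86.6 CPM, but cow 3847 had 642 CPM at EL where the next cow had 168. Without cow 3847 the liver difference to ML turned to -0.05 for SOD2 and to -0.06 for TUBA1B. In muscle SOD2 was lower at EL than at LP in 15 of 16 cows (medians 42.9 and 35.3 CPM). SOD2 was also the 1 gene of the 100 on a list of NF-kB targets, of which 4 genes were kept. All 4 fell in muscle by edgeR against LP (24.7% of all tested genes did) and against ML (28.4%).

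BIN1, which shapes the membrane tubules of muscle cells, ranked next after SUCLA2. Its muscle medians were 1401, 949 and 1270 CPM and its liver medians 12.8, 18.2 and 12.2 CPM at LP, EL and ML. It was lower in muscle at EL than at LP and than at ML in 15 of 16 cows. PKIA, an inhibitor of protein kinase A, had muscle medians of 516, 459 and 498 CPM and liver medians of 4.82, 6.30 and 4.24 CPM. DBI, which binds acyl-CoA esters, stood in liver at 287, 281 and 217 CPM, and in muscle at 50.9, 38.7 and 45.4 CPM. GPC3, a glypican of the cell surface, fell in muscle from 5.16 to 2.85 CPM and stood at 10.3 at ML, where all 16 cows were above EL.

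Several genes of low level depended on few libraries. ITGA2, an integrin subunit, had liver medians of 5.11, 5.91 and 4.77 CPM with 75.5 CPM in cow 3847 at EL. RND1, a small GTPase, had liver medians of 3.02, 4.86 and 2.80 CPM with 152 CPM in cow 164 and 138 CPM in cow 3847 at EL. MGC139239 reached 100 CPM in cow 3847 at EL in liver where the median was 4.47, and only 7 of 16 cows had more at EL than at ML. For 3 members the plain means of CPM went against at least 1 of the 4 log2 values, namely CCRN4L (the circadian deadenylase nocturnin), MAMSTR (a co-activator of muscle transcription) and NHSL1. RASL11B, a Ras-like GTPase, had liver medians of 1.10, 3.21 and 2.69 CPM at LP, EL and ML.

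As to where the genes are expressed, 66 of the 100 had more CPM in muscle than in liver, beside 48.5% of kept genes. More than 4-fold higher levels in muscle were seen for 23 of the genes (7.60% of kept genes) and in liver for 15 (12.8%). The ratio of muscle to liver CPM was largest for ALDOA (259), PKIA (91.3), BIN1 (83.1), ENSBTAG00000016688 (42.4) and LDHA (34.5). The ratio of liver to muscle CPM was largest for ENSBTAG00000010357 (127), GPC3 (48.9), PC (41.3), ENSBTAG00000014964 (13.3) and ENSBTAG00000004799 (12.3). The rule did not compare LP with ML. ML minus LP had a median over the 100 genes of 0.0010 in liver and 0.03 in muscle, with 50 and 58 genes above 0. PC and LDHA were lower in liver at ML than at LP, with -0.70 and -0.94.

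The study was designed to compare the genotypes. The rule did not use the genotype labels, but it averaged the EL values of these same cows, so the tests below are those of single genes over all genes, and counts and medians over the 100 genes are given as a description. Taken in Fert+ cows only, 96 of the 100 genes had all 4 values above 0, and the median liver differences were 0.41 and 0.44. Among kept genes 575 of 10323 had that pattern in Fert+, with median liver differences of 0.13 and 0.09. Taken in Fert- cows only, 44 of the 100 had it, and the liver medians were 0.06 and 0.07. Among kept genes 104 of 10493 had it in Fert-, with liver medians of -0.05 and -0.13. The muscle medians of the 100 genes were 0.33 and 0.34 in Fert+ and 0.33 and 0.32 in Fert-. By edgeR's quasi-likelihood test, adjusted over all genes, none of the 100 genes differed between Fert+ and Fert- cows in either tissue at any time-point. Of all tested genes, 1 (0.00831%) did, in muscle at EL, and none did in the other 5 comparisons (0%). At an unadjusted p under 0.05, 14 of the 100 genes were higher and 2 lower in Fert+ in liver at EL, where 7.04% and 4.69% of all tested genes were. In muscle at EL 18 were higher and none lower (5.75% and 6.10%). In muscle at ML 12 were higher and 1 lower (3.63% and 4.02%). In liver at LP the direction was the other one, with none higher and 8 lower in Fert+ (3.08% and 3.46%). In liver at ML 4 were higher and 6 lower (5.35% and 7.04%), and in muscle at LP 2 and 2 (3.14% and 3.56%). Without cow 426 the liver counts became none higher and 2 lower at LP (2.59% and 2.92% of all genes), 7 and 4 at EL (6.46% and 5.01%), and 4 and 14 at ML (7.32% and 6.27%). Without cow 3434 the counts at EL became 19 and 1 (9.29% and 6.27%), and without cow 996 they became 10 and 3 (6.14% and 4.86%). All 5 muscle libraries among the 13 named above are of Fert- cows, and without the 13 the count of 18 in muscle at EL became 27 (6.57%), again with none lower (4.63%). The 8 liver libraries among the 13 lean the other way, with 2 of Fert+ at each time-point and 1 of Fert- at EL and at ML. Without the 13, the liver counts at EL became 13 higher and 2 lower (5.15% and 4.57%). The smallest adjusted p of any of the 100 genes in these 6 comparisons was 0.165 over all libraries.

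The change at EL differed between single cows, and in liver it ran higher in Fert+. Taking EL minus the mean of LP and ML for each gene and then the median over the 100 genes, the 8 Fert+ cows ran from 0.10 over 0.47 to 0.65 in liver and the 8 Fert- cows from -0.13 over 0.08 to 0.30. In liver 6 of the Fert+ cows lay above every Fert- cow, while cows 430 and 3434 lay among them. These values use the labels as given, also for cows 426, 3434 and 996, whose liver libraries raise the doubt stated above. Kept genes as a whole also differed in this way on the plain CPM scale: their median EL minus LP was 0.14 in the median Fert+ cow and -0.10 in the median Fert- cow. Their median EL minus ML was 0.12 in the median Fert+ cow and -0.23 in the median Fert- cow. In muscle the ranges overlapped throughout, from -0.51 over -0.28 to -0.21 in Fert+ and from -0.76 over -0.31 to 0.06 in Fert-.

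Gene by gene, the genotype difference in the change at EL was tested by edgeR with TMM scaling, which brings the median of all genes close to 0. The main fit had no block for each cow. In liver the difference was above 0 (a larger rise in Fert+) for 80 of the 100 genes, with a median of 0.21, beside 49.7% of the 13815 tested genes. That count describes genes whose liver rise in these same cows was larger in Fert+, as given above, and is no independent support for a genotype difference. At an unadjusted p under 0.05 it was above 0 for 23 genes and below 0 for none (8.22% and 2.61% of all genes), and at an adjusted p under 0.05 for none of the 100 and none of all genes (0%). Without cow 426 the 23 became 16 (7.03% of all genes) and the 80 became 74. Without cow 3847 they became 16 (3.96%) and 74, with 2 genes below 0 at an unadjusted p under 0.05 (2.46%). Without cow 756 they became 16 (5.95%) and 76. They became 28 (10.3%) and 83 without cow 3434, and 33 (8.41%) and 83 without cow 419. Without the 13 libraries named above they became 27 (5.36%) and 77, with 3 genes below 0 at an unadjusted p under 0.05 (2.75%). An exact permutation test of the 8 against 8 cows on the log2(CPM + 1) scale, which keeps the shift of all genes, gave an unadjusted p under 0.05 for 43 of the 100 genes, higher in Fert+ where 26.0% of kept genes were, for none lower (0.221%), and again no adjusted p under 0.05 (smallest 0.0581). In muscle the same test gave 7 higher and 2 lower (1.53% and 11.0%).

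PGP had the smallest p in liver. Its change at EL ran from 0.12 over 0.61 to 1.84 in Fert+ and from -0.62 over -0.10 to 0.24 in Fert-, and all but the lowest Fert+ cow lay above the highest Fert- cow. The edgeR difference was 1.01 ± 0.26 (SE; adjusted p = 0.173), and without cow 3847 it was 0.74. SUCLA2 came next, with a change from -0.01 over 0.65 to 2.99 in Fert+ and from -0.47 over 0.09 to 0.47 in Fert-. Its edgeR difference was 1.11 ± 0.31 (SE; adjusted p = 0.184), and without cow 3847 it was 0.45 (adjusted p = 0.708). ENSBTAG00000003307 followed (0.49 ± 0.14, SE; adjusted p = 0.206).

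In muscle the edgeR difference was above 0, a smaller fall in Fert+, for 68 of the 100 genes (median 0.09), beside 48.9% of the 12675 tested genes. The same limit holds as in liver. On the log2(CPM + 1) scale the difference was above 0 for 46 of the 100 genes (median -0.03), beside 23.7% of kept genes. At an unadjusted p under 0.05 the edgeR difference was above 0 for 10 genes and below 0 for 2 (5.02% and 5.13% of all genes). None of the 100 passed an adjusted p of 0.05 by edgeR, where 7 of all genes did (0.0552%). PDHA1 had the smallest p. Its change in muscle ran from -0.30 over -0.08 to 0.56 in Fert+ and from -0.73 over -0.41 to -0.02 in Fert-. All 8 Fert+ cows lay above the Fert- median, and the edgeR difference was 0.59 ± 0.16 (SE; adjusted p = 0.136). MTMR7, a phosphoinositide phosphatase, followed with 0.93 ± 0.28 (SE; adjusted p = 0.187) and ENSBTAG00000020125 with 0.46 ± 0.14 (SE; adjusted p = 0.187). With each cow as a replicate block, 16 in place of 10 genes had an unadjusted p under 0.05 above 0 in muscle (6.56% of all genes). Still none of the 100 passed after adjustment. The 10 became 6 without cow 33 (5.15%), 430 (4.03%), 782 (3.75%) or 1179 (4.03%) and 15 without cow 3397 (5.49%). The summed CPM of the 20 muscle fibre markers in muscle at EL also differed between the genotypes, with a median of 188104 in Fert+ (lowest 124825, highest 255125) and 141771 in Fert- (lowest 83414, highest 187218). The summed CPM of the 3 kept endothelial markers moved the other way in muscle, with medians of 117 at LP, 170 at EL and 111 at ML. At EL the sum stood at 155 in Fert+ (lowest 109, highest 201) and 217 in Fert- (lowest 151, highest 267). By edgeR 1 of the 3 rose and 1 fell at EL against LP (29.1% and 24.7% of all genes). Against ML 0 rose and 1 fell (30.9% and 28.4%). Their median LP minus EL was -0.34 on the log2(CPM + 1) scale, beside -0.36 for the median kept gene. The part of either marker list in these differences was not tested.

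**Figure D4:**
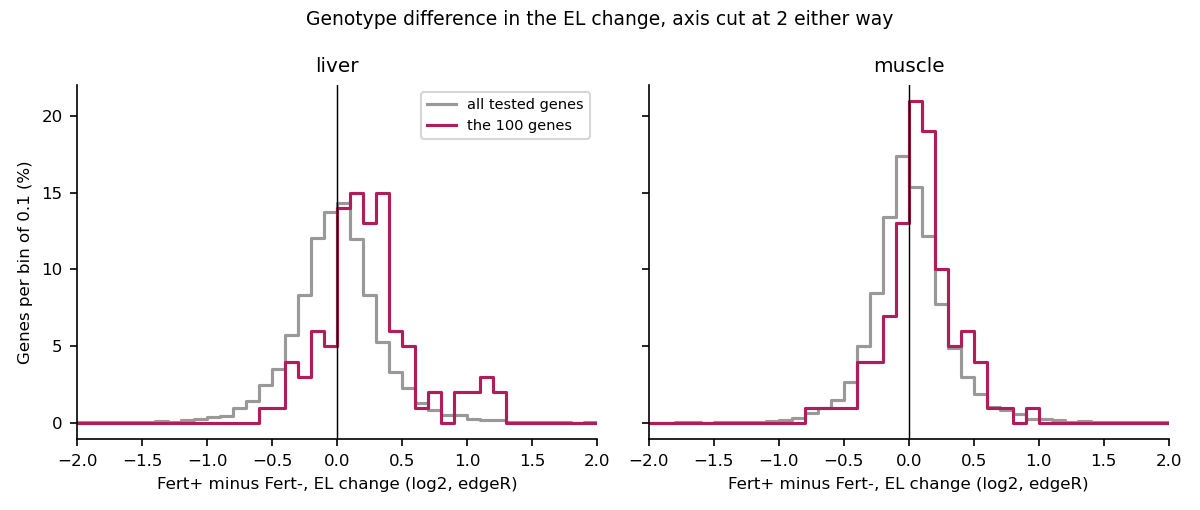
Distribution of the genotype difference in the change at EL (Fert+ minus Fert-, edgeR log2 scale, percent of genes per bin of 0.1, axis cut at 2 either way) for the 100 genes (red) and all tested genes (grey), in liver and muscle. The red line lies right of 0 for 80 of the 100 genes in liver and for 68 in muscle, genes that were chosen on the EL values of the same cows.

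Whether the cows with the larger rise in liver also had the larger fall in muscle was examined next. Over the 16 cows, the correlation of a gene's change at EL in liver with its change in muscle had a median of -0.03 over the 100 genes and was below 0 for 54 of them, beside -0.04 and 54.9% for all kept genes. For the 6 highest-ranked named genes, SUCLA2, BIN1, PC, ALDOA, IDH3A and LDHA, the correlation was tested over cows. It was highest for BIN1 (Pearson's r = 0.26, permutation p = 0.328, adjusted over the 6 relations p = 0.866; Spearman's rho = 0.34, permutation p = 0.205, adjusted p = 0.851; n = 16). Without the 2 cows farthest from the median it was 0.15, and it was 0.59 within Fert+ and -0.17 within Fert-. SUCLA2 gave r = 0.19 (permutation p = 0.508, rho = 0.29) and LDHA r = -0.14 (permutation p = 0.598, rho = -0.10). For PC r was 0.05, and -0.37 without the 2 farthest cows. ALDOA gave r = 0.22 (permutation p = 0.414) and IDH3A r = 0.05 (permutation p = 0.859). After adjustment the p of Pearson's r was 0.866 for each of the 6 genes.

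The cows varied in how many of the 100 genes they followed. All 4 differences were above 0 for 76 of the genes in Fert+ cow 756 (10.6% of kept genes in the same cow) and 71 in Fert+ cow 33 (8.24%), but for 10 in Fert- cow 982 (0.863%), 11 in Fert- cow 426 (3.55%) and 14 in Fert- cow 164 (1.23%). Cow 419 had the deepest fall in muscle, with a median of -0.76 beside a liver median of 0.23. Cow 164 was the 1 cow whose muscle median was above 0 (0.06). Cows 164, 982 and 426 were the 3 whose liver median was below 0. For cow 426 the liver libraries labelled LP and EL each resembled the other's time-point, and whether its labels were exchanged was not tested.

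**Figure D5:**
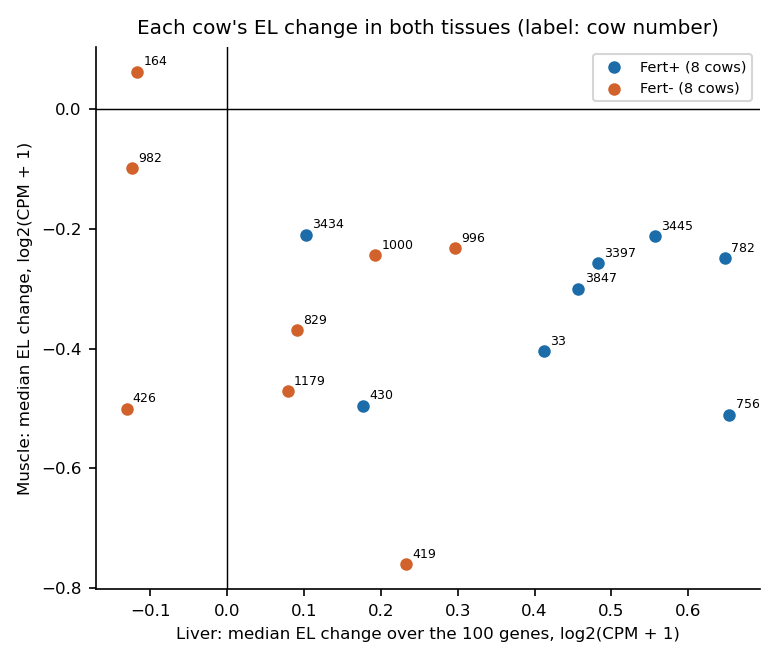
Each point is a cow, labelled with its number: the horizontal axis is the median over the 100 genes of its change at EL in liver and the vertical axis that in muscle, both as EL minus the mean of LP and ML on the log2(CPM + 1) scale. Fert+ cows (blue) lie between 0.10 and 0.65 in liver and Fert- cows (orange) between -0.13 and 0.30, and the muscle values overlap.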

How the data were processed

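Liver and muscle biopsies of 16 cows were sequenced as polyA RNA with the TruSeq v2 kit. Per the study's methods, the authors used Trimmomatic for trimming and STAR for alignment to UMD3.1, kept proper pairs and obtained pair counts per Ensembl gene from featureCounts, so the deposited values are raw counts, without normalization. Groups, tissues, times and cows come from the labels. A further 96 columns carried no sample name, and their values went into no step.

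CPM was taken over library totals, and log2 values used a pseudocount of 1. Tests used edgeR 4.0.16 in R 4.3.3 (filterByExpr, TMM factors, robust quasi-likelihood fit, Benjamini-Hochberg adjustment over all genes tested, threshold 0.05), and an exact two-sided permutation test over all 12870 splits of 8 and 8 cows, whose smallest p is 0.000155. Correlations used 100000 permutations. DESeq2 1.42.0, other scalings, filters and pseudocounts, a block for each cow, and leaving out each cow or the 13 libraries that count 11 to 17 of a set of 19 genes of which the other 83 count at most 3 (8 of liver, 5 of muscle) were alternatives. The code was tested on simulated data.

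The members and lists were chosen with earlier results of these data known, and the lists of single complexes, pyruvate dehydrogenase and mitochondrial genes were written after their values were seen. Genes were named by rule: the 30 highest-ranked with a symbol, those on a list, those of rank 96 to 105, in each tissue the 3 with the smallest p for the genotype difference in the change at EL, and the 5 most unequal between tissues in each direction. Symbols come from the study's supplementary tables. Same-numbered libraries were taken to be of the same cow from their labels. In each tissue 40 of 48 pairs of a cow's libraries had residuals correlated above 0.1 (median 0.271 in liver and 0.240 in muscle). No value is given for pairs of different cows or across the tissues, so these correlations do not test the labels. Paired reads were counted without molecular identifiers, and the spread between cows sets the precision. Values of some genes that this rule names are not reported here.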

Additional observations from a re-analysis of the deposited data

Results flagged for a closer look

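The change of MTMR7 at EL in muscle was 1.21 in 1 Fert+ cow, on the log2(CPM + 1) scale, which lay apart from the other 7 Fert+ cows by Dixon's criterion. This was 1 of 16 groups of 8 cows examined, and chance alone sets about 1 group in 20 apart.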

How the results depend on the processing

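Of the 100 genes, 45 were chosen again with TMM factors, 44 with RLE factors, 58 from Fert+ cows only and 42 from Fert- cows only, and between 78 (without cow 3847) and 92 when 1 cow was left out. With TMM and RLE factors all 100 kept the 4 values above 0, but 1285 and 1312 kept genes then did. From Fert- cows only 44 of the 100 did, beside 104 of 10493 kept genes. Taking the median over cows turned the liver difference between EL and ML to -0.17 for MGC139239, -0.013 for SOD2, -0.034 for MTMR7 and -0.074 for TUBA1B. Without the 13 libraries that count 11 to 17 of a set of 19 genes it was -0.053 for SOD2. Leaving out 1 cow gave -0.054 to 0.20 for SOD2 and -0.055 to 0.21 for TUBA1B, the lowest being without cow 3847.

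The 10 genes that passed in liver against LP (369 of all genes in either direction) became 5 with each cow as a replicate block (332) and 18 with DESeq2 (622). For genotype, edgeR's quasi-likelihood test called none of the 100. An exact test with 1 common dispersion called 3 in liver at LP, 6 at EL and 2 at ML. Of all genes tested in liver it called 306 of 12872, 301 of 13047 and 279 of 13235. In muscle it called 3 at LP, 6 at EL and 2 at ML. Of all genes tested in muscle it called 214 of 11954, 438 of 12035 and 214 of 12001. DESeq2 called 1 in liver at EL, 2 in liver at ML and 4 in muscle at EL (6, 77 and 119 of all genes). For the genotype difference in the change at EL, DESeq2 called 1 gene in liver (PGP, adjusted p = 0.0496) and 1 in muscle (PDHA1, adjusted p = 0.0336), beside 31 and 72 of all genes. Leaving out 1 cow gave 0 to 1 calls in liver, the 1 being PGP without cow 3434 (adjusted p = 0.0497), where 44 of all 13878 genes passed. Leaving out cow 3434 or 996, like cow 426, was chosen after seeing the data, and gave no call among the 100 genes in liver at LP, EL or ML. The cause of these changes was not tested. With the replicate block, none of the 100 genes passed for the genotype difference in the change at EL either (20 of all genes did in muscle and none in liver). The number of cows, 8 per genotype, limits these comparisons.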
